A study of Mus musculus with 72 samples.

Results

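RNA of RAW264.7 macrophages carrying a hairpin against SMRT was compared with RNA of the same line carrying a hairpin against NCOR. Genes entered the comparison when they reached 1 RPKM or more (reads per kilobase of exon and per M mapped reads, where M stands for mega) in at least 3 of the 6 libraries, which gave 10694 of the 25124 genes in the RNA table. Of the remaining genes, 9356 were at 0 in all 6 libraries and 5074 were above 0 but below the filter. RAW264.7 is an established mouse macrophage-like line, and the labels describe cells with a lentiviral short hairpin, kept in ordinary serum-containing medium without treatment. The groups were shSMRT (hairpin against SMRT, 3 libraries), shNCOR (hairpin against NCOR, 3 libraries) and shGFP (control hairpin, 3 libraries). All groups therefore shared the line, the medium and a lentiviral hairpin, and the hairpin's target was what differed. RNA was measured as polyadenylated RNA, and ATAC-seq, which counts transposase insertions in open chromatin, was available for the same 3 groups, also with 3 libraries each. Whether a group's 3 libraries are separate cultures or infections is not given in the labels, and p-values therefore reflect only library-to-library spread, part of which may be technical. An effect of the target and any other difference between separately infected populations cannot be told apart in this design.

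NCOR and SMRT are large, related corepressor proteins, and Ncor1 encodes NCOR. Each binds unliganded nuclear receptors and other transcription factors and brings a complex with the histone deacetylase HDAC3, TBL1 proteins and GPS2 to their target genes. In macrophages they are known for holding inflammatory, interferon and lipid-metabolism genes at a low level until a signal releases them.

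The hairpin against NCOR lowered its target. Ncor1 (chr11:62316426-62438515, mm10) stood at 18.4, 20.2 and 18.7 RPKM in the shGFP libraries, at 3.61, 4.20 and 4.30 RPKM in the shNCOR libraries and at 18.9, 20.2 and 20.2 RPKM in the shSMRT libraries. The shNCOR libraries were below all others, and shNCOR and shSMRT did not overlap. The Ncor1 difference, shSMRT minus shNCOR, was 2.05 ± 0.06 on the log2(RPKM + 1) scale (SE, limma, adjusted p = 6.72e-10). Ncor1 in shNCOR was at a fold of 0.204 of its shSMRT mean. Of 5 other subunits of the complex, Tbl1x (-0.33 ± 0.05), Coro2a (-0.37 ± 0.06) and Gps2 (-0.17 ± 0.05) were lower in shSMRT. Hdac3 (-0.04 ± 0.03) and Tbl1xr1 (-0.11 ± 0.05) did not pass the test.

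Depth was 39.5 to 49.1 M reads in the knockdown libraries, and the listed exons took 90.9% to 92.8% of them. The libraries were macrophage-like in their markers: all 8 macrophage markers examined, among them Csf1r, Cd68, Adgre1 and Lyz2, were at 18.5 RPKM or more in all 6 libraries. The summed level of 11 neutrophil and mast cell markers ranged from 0 to 0.245 RPKM in shNCOR and from 0.449 to 0.540 RPKM in shSMRT, with 9 and 8 of them at 0 throughout, and its part in the results was not tested. The summed level of 12 lymphocyte markers was 1.38 to 1.54 RPKM in shNCOR and 0.893 to 1.63 RPKM in shSMRT. For 12 fibroblast and epithelial markers it was 1.09 to 1.27 and 1.54 to 1.71 RPKM. In bulk RNA, more cells of a kind and more RNA per cell cannot be told apart.

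A large part of the expressed genome differed between the knockdowns, mostly by little. At an adjusted p under 0.05, 2451 genes were higher in shSMRT (22.9% of those tested) and 3125 were lower (29.2%), so that 52.1% were called. The shNCOR and shSMRT ranges were separate for 59.1% of all tested genes and for 5416 of the 5576 called genes. Most calls were small: 1770 of the higher and 2897 of the lower genes differed by less than 0.5 on the log2(RPKM + 1) scale, and the median SE was 0.05. Larger differences were mostly in 1 direction, with 187 genes higher and 27 lower by at least 1, and 30 higher and 4 lower by at least 2. These 2 counts depend on the pseudocount, since 68 of the 187 and 7 of the 27 had a mean under 1 RPKM in the lower group. With a pseudocount of 0.1 they were 302 and 45. The median difference of all tested genes was -0.02.

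**Figure D1:**
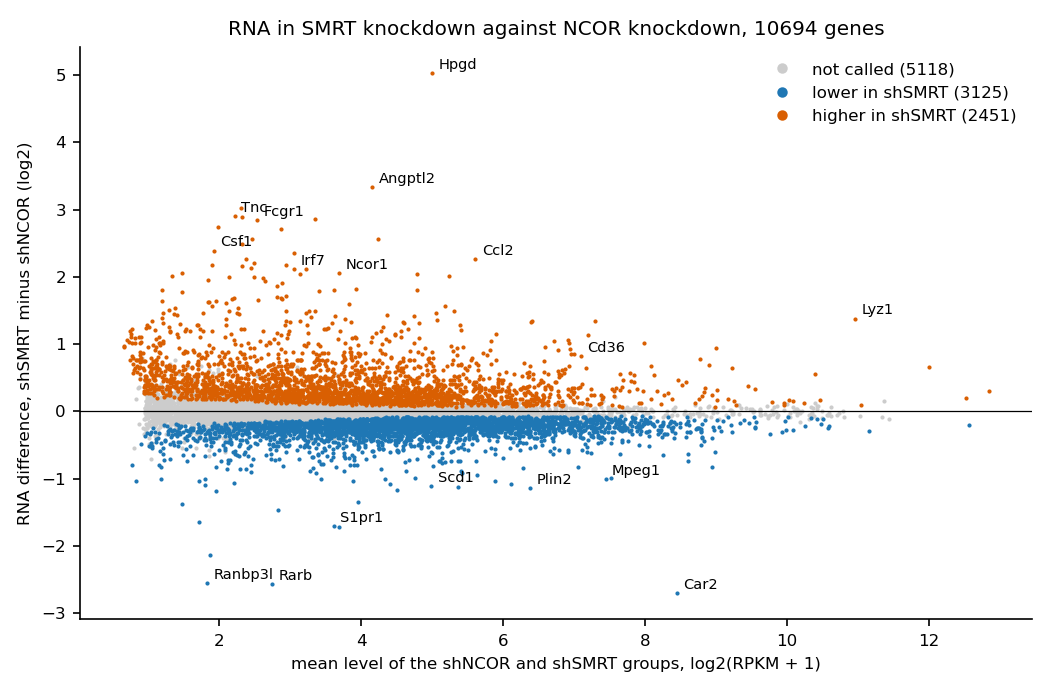
RNA difference between the knockdowns (shSMRT minus shNCOR, log2) against the mean level of both groups (log2(RPKM + 1)), 1 point per tested gene, coloured by call. The points past 1 lie mostly above the axis (187 higher, 27 lower), while small lower calls are more numerous than small higher calls.

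The filter admitted 249 genes with exactly 3 libraries at 1 RPKM and left out 137 genes with 2. Among those admitted, 165 reached 1 RPKM in all 3 shSMRT libraries and in no shNCOR library, and 25 did so the other way round. Such genes had to differ to be included, so counts over the tested genes hold some that the filter itself selected. Among genes named below, Fcgr1, Qpct, Itga6, Pparg, Arl4c, Ccrl2 and Tbxas1 passed the filter only through shSMRT. Ranbp3l, Opcml and Map2k6 passed it only through shNCOR. Their calls are read with that limit, as are those of the further genes for which it is given below.

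The 15 highest genes leave out predicted and unnamed genes and were chosen among genes whose groups do not overlap. Hpgd, the enzyme that begins the inactivation of prostaglandins (chr8:56294552-56321046), was at 1.01, 1.04 and 0.637 RPKM in shNCOR and at 62.5, 58.9 and 61.2 RPKM in shSMRT, with 0.508 to 0.700 RPKM in shGFP. Its difference was 5.03 ± 0.09 (limma, adjusted p = 1.36e-11), and the control and shNCOR libraries were both close to the detection filter. Angptl2, a secreted angiopoietin-like protein (chr2:33215961-33247714), was at 2.33, 2.07 and 2.20 RPKM in shNCOR and at 30.2, 32.6 and 31.5 RPKM in shSMRT, with a mean of 9.14 RPKM in shGFP (3.34 ± 0.06, adjusted p = 2.93e-11). Its 3 groups did not overlap, and shGFP lay between the knockdowns. Fcgr1, the high-affinity receptor for IgG, was at 0.339, 0.438 and 0.471 RPKM in shNCOR, at 9.52, 8.73 and 9.20 RPKM in shSMRT and at 17.4 to 17.6 RPKM in shGFP (2.84 ± 0.05, adjusted p = 2.93e-11). Here the control was above both knockdowns, and Fcgr1 passed the filter only through shSMRT. Ccl2, the monocyte-attracting chemokine, was at 16.6, 15.3 and 15.2 RPKM in shNCOR and at 83.1, 84.4 and 72.4 RPKM in shSMRT, with 6.06 to 7.13 RPKM in shGFP (2.27 ± 0.07, adjusted p = 7.51e-10). Both knockdowns were thus above the control for Ccl2.

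Several genes were near 0 in shNCOR and shGFP and at several RPKM in shSMRT. Tnc, the matrix glycoprotein tenascin C, had a mean of 0.106 RPKM in shNCOR, 0.0383 RPKM in shGFP and 7.23 RPKM in shSMRT. Mt3, a metal-binding metallothionein, had means of 0.0710, 0.0290 and 7.78 RPKM in the same order. Csf1, the macrophage growth factor, had means of 0.216, 0.221 and 5.38 RPKM. Pdcd1, which encodes the inhibitory receptor PD-1, had means of 0.0313, 0.375 and 5.90 RPKM, and Rgs16, a regulator of G-protein signalling, had means of 0.189, 0.638 and 7.80 RPKM. All 5 were under 1 RPKM in every shNCOR library, so they passed the filter only through shSMRT. Their choice also required shSMRT and shNCOR not to overlap, so that separation is no further result. For each of them the lowest shSMRT library was also above the highest shGFP library. The rest of the 15 highest were Acy1, Uchl1, Evl, Rtp4, Qpct and Ifi44, with differences from 2.36 to 2.86. Uchl1 is a ubiquitin hydrolase, Evl an actin regulator and Qpct the enzyme that forms amino-terminal pyroglutamate. Acy1 overlaps a neighbouring gene and Ifi44 has a near copy, and the exon counts ignored strand, so their reads may be shared.

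Among abundant genes, Lyz1, a lysozyme, was at 1126, 1102 and 1081 RPKM in shNCOR and at 2892, 2723 and 2998 RPKM in shSMRT, with a mean of 395 RPKM in shGFP (1.38 ± 0.04). Its reads may be split with its near copy Lyz2. Ywhag, a 14-3-3 adaptor protein, was at 86.3 to 87.5 RPKM in shNCOR and at 223 to 226 RPKM in shSMRT, and the control was at 217 to 221 RPKM (1.35 ± 0.02). Ank had means of 166 and 338 RPKM (1.02 ± 0.02). Hmox1, heme oxygenase, had means of 79.2 and 162 RPKM (1.02 ± 0.03).

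The 15 lowest genes were chosen in the same way. Car2, the carbonic anhydrase that osteoclasts use to make acid (chr3:14886269-14900770), was at 590, 612 and 614 RPKM in shNCOR and at 94.9, 90.0 and 91.4 RPKM in shSMRT, with 181 to 196 RPKM in shGFP (-2.70 ± 0.04, limma, adjusted p = 2.90e-12). Its control libraries lay between the knockdowns. Rarb, a retinoic acid receptor (chr14:16430840-16575476), was at 10.3, 10.6 and 10.5 RPKM in shNCOR, at 0.851, 0.763 and 1.21 RPKM in shSMRT and at 0.513 to 0.860 RPKM in shGFP (-2.57 ± 0.10, adjusted p = 4.77e-09). Ranbp3l (means 5.09 RPKM in shNCOR and 0.0343 RPKM in shSMRT) and Opcml, a cell adhesion molecule (means 4.95 and 0.357 RPKM), were likewise low in shGFP, at 0.154 and 0.721 RPKM. For these 3 genes shNCOR was the group that stood apart, and Ranbp3l and Opcml passed the filter only through it.

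Gas6, the ligand of the TAM receptors that mediate uptake of dead cells, had means of 18.8 RPKM in shNCOR and 5.01 RPKM in shSMRT (-1.72 ± 0.06). S1pr1, the receptor for sphingosine-1-phosphate, had means of 17.7 and 4.75 RPKM (-1.70 ± 0.04). Both were closer to the control in shSMRT, since shGFP had means of 6.56 RPKM for Gas6 and 5.26 RPKM for S1pr1. Htr1b, a serotonin receptor, had means of 21.2, 7.76 and 18.2 RPKM in shNCOR, shSMRT and shGFP, so that here shSMRT stood apart. Mlycd (-1.47 ± 0.07), Map2k6 (-1.37 ± 0.10), Akr1c13 (-1.18 ± 0.07), Slc5a3 (-1.17 ± 0.06), Plin2 (-1.14 ± 0.04), Basp1 (-1.13 ± 0.05), Scd1 (-1.11 ± 0.04) and Grtp1 (-1.09 ± 0.13) completed the 15 lowest. Plin2 coats lipid droplets, Scd1 desaturates fatty acids, Mlycd degrades malonyl-CoA and Map2k6 is a kinase upstream of p38. Slc5a3 overlaps another gene, so its reads may be shared. Fabp5, a fatty acid carrier (-1.03 ± 0.05), and Tmem38b, an ion channel of the endoplasmic reticulum (-1.08 ± 0.05), were the other abundant genes lower by at least 1.

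**Figure D2:**
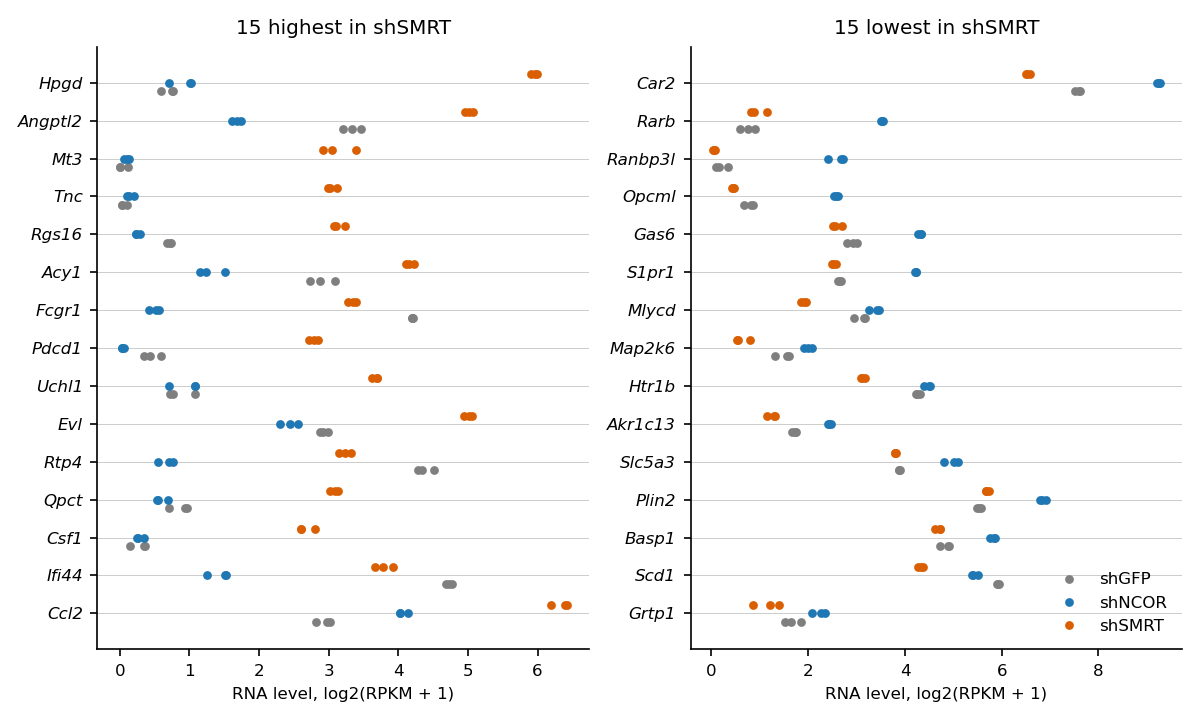
RNA levels (log2(RPKM + 1)) of the 15 genes highest and the 15 lowest in shSMRT relative to shNCOR, 1 point per library, coloured by group. The 30 genes were chosen among those whose shSMRT and shNCOR points do not overlap, and shGFP lies near shNCOR for Hpgd and Tnc, near shSMRT for Rarb and Gas6 and above both for Fcgr1, Rtp4 and Ifi44.

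The control placed these differences on either side. Among the 187 genes higher in shSMRT by at least 1, the shGFP mean lay between the knockdowns for 103, at or above both for 40 and at or below both for 44. It was nearer to the shNCOR mean for 104 and nearer to the shSMRT mean for 83. Among the 27 genes lower by at least 1, it lay between the knockdowns for 19, was nearer to shNCOR for 12 and nearer to shSMRT for 15. The comparisons of each knockdown with shGFP share the same control libraries, so these positions are given as levels only.

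Genes of the interferon response were higher in shSMRT than in shNCOR. Interferons act through their receptors to switch on antiviral genes, and sensors of foreign nucleic acid induce them through IRF3 and IRF7. Of 23 listed sensors, receptors and transcription factors, 22 were tested, 17 were higher (77.3%, against 22.9% of all tested genes) and 2 were lower, with a median difference of 0.43. Irf7, the factor that amplifies interferon production, was at 2.02, 2.65 and 1.76 RPKM in shNCOR, at 12.0, 12.1 and 13.3 RPKM in shSMRT and at 19.1 to 20.8 RPKM in shGFP (2.11 ± 0.09, limma, adjusted p = 9.22e-09). Ddx58, the RNA sensor RIG-I, had means of 1.53, 5.96 and 8.57 RPKM in shNCOR, shSMRT and shGFP (1.46 ± 0.07). Ifnar2, a subunit of the type I interferon receptor (-0.13 ± 0.03), and Irf3 (-0.15 ± 0.05) were the 2 lower members, and the shNCOR and shSMRT ranges of Irf3 overlapped. Irf3 passed at an adjusted p of 0.0232 (limma) and missed the threshold after median-ratio scaling (0.0507) and without shNCOR library 2 or 3 or shSMRT library 1 or 2 (0.0568 to 0.0942). With the trend with exon length removed, neither passed (limma, adjusted p = 0.0960 for Ifnar2 and 0.108 for Irf3), which left no lower member.

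Of 43 antiviral effectors, 34 were tested, 32 were higher (94.1%, against 22.9% of all tested genes) and none was lower. Their median was 0.97, against -0.02 over all tested genes. The 9 that were not tested, among them Ifit1, Ifit3, Mx1, Mx2, Oasl2 and Rsad2, did not reach the filter. Rtp4, a chaperone induced by interferon, was at 0.636, 0.706 and 0.468 RPKM in shNCOR, at 8.42, 7.85 and 9.04 RPKM in shSMRT and at 18.5 to 21.9 RPKM in shGFP (2.56 ± 0.08, adjusted p = 9.06e-10). Ifi44 was at 1.38 to 1.89 RPKM, 11.7 to 14.2 RPKM and 24.7 to 26.4 RPKM in the same order (2.36 ± 0.08). Both genes were chosen among those with separate shNCOR and shSMRT ranges, and Rtp4 passed the filter only through shSMRT. The shGFP libraries were above both knockdowns, so the order was shNCOR, shSMRT, shGFP in both genes. Across the 34 tested effectors the shGFP mean was above both knockdowns for 25, lay between shNCOR and shSMRT for 8 and was below both for 1. Herc6 (-0.00 ± 0.07) and Slfn9 (0.09 ± 0.08) were the 2 members that did not pass. All 32 also passed when the test asked for a difference beyond 1.2 fold. Over all 10694 tested genes that test left 762 higher and 353 lower. Among guanylate-binding and immunity-related GTPases, which attack vacuoles of intracellular pathogens, 3 of 14 were tested and all 3 were higher, including Igtp (0.94 ± 0.09) and Irgm1 (0.73 ± 0.05).

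**Figure D3:**
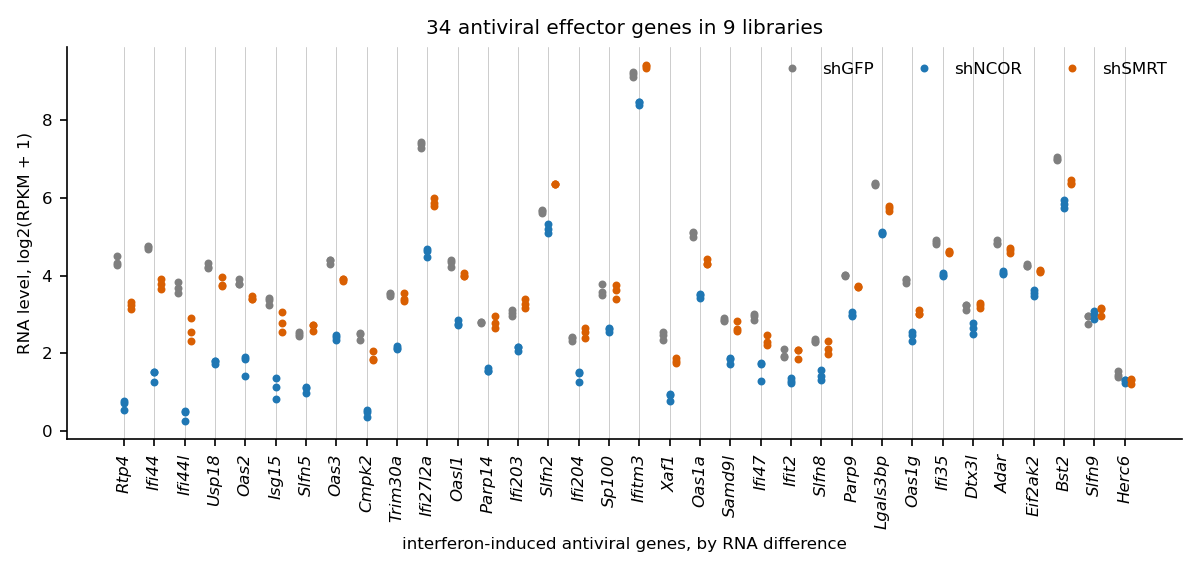
RNA levels (log2(RPKM + 1)) of the 34 tested antiviral effector genes, ordered by their difference between the knockdowns, 1 point per library and 3 libraries per group. The shNCOR points are lowest for most genes, and for 25 genes the shGFP mean is above both knockdowns.

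The promoters of these effectors often held the interferon-stimulated response element, a site bound by IRF factors. A pair of GAAA runs with any 2 bases between them was searched on both strands in RefSeq promoter windows of GRCm38.p6 (the assembly of mm10) from 250 bases before to 50 bases after the start. Such a pair was present in 12 of 27 tested effectors with an entry (44.4%), against 3.74% of 8393 tested genes with an entry. Among genes with an entry, 15 of 136 higher by at least 1 (11.0%) and 2 of 19 lower by at least 1 (10.5%) held it, so its share did not separate the directions. The windows of Isg15 (a ubiquitin-like antiviral protein, chr4:156200769-156201068, minus strand, mm10) and Oas3 (an oligoadenylate synthetase, chr5:120777610-120777909, minus strand) show the element. They were picked after values were seen, among the effectors that hold it. Slfn5 (1.61), which lies between them, also holds it and is not shown. Rtp4 (2.56) and Ifi44 (2.36) differed more than Isg15 and are not shown. The Oas3 window overlaps its promoter peak, and the Isg15 window overlaps none. Capitals mark the element and, in Oas3, also matches to the AP-1 letters TGANTCA. The 3 matches in Isg15 overlap each other.

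Isg15: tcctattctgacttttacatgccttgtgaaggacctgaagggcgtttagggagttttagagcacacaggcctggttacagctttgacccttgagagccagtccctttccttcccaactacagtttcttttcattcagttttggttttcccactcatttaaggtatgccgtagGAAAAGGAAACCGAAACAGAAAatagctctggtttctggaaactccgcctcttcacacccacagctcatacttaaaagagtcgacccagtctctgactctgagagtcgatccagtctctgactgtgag

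Oas3: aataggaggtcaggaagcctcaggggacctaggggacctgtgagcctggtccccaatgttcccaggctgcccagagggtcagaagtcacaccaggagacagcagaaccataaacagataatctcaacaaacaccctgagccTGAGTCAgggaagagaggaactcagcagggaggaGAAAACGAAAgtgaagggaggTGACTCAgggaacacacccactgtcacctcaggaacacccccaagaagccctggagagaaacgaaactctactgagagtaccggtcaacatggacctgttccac

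Isg15 had a mean of 1.19 RPKM in shNCOR, 6.04 RPKM in shSMRT and 9.25 RPKM in shGFP (1.69 ± 0.14), and Oas3 had means of 4.35, 14.0 and 19.6 RPKM (1.49 ± 0.05). AP-1 letters were in 13.2% of promoters of genes higher by at least 1, 5.26% of those lower by at least 1 and 5.73% of all. The NF-kB letters GGGA and TTTCC with any 1 base between them were in 2.21%, 0% and 0.489%, and the PU.1 letters GAGGAAGT in 4.41%, 5.26% and 3.85%. A match is a run of letters and does not show binding.

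Antigen presentation genes were higher too. Of 18 genes for MHC class I and peptide loading, which display peptides to T cells, 14 were higher and none was lower. The higher share was 77.8%, against 22.9% of all tested genes, and the median was 0.40. H2-T23, a non-classical class I gene, had means of 10.1 RPKM in shNCOR, 29.0 RPKM in shSMRT and 29.2 RPKM in shGFP (1.43 ± 0.05). H2-T24 had means of 1.46, 8.79 and 17.1 RPKM (1.99 ± 0.08), and may share reads with related class I genes. Of 14 genes for MHC class II and costimulation only 4 were tested and 3 were higher. They included Cd80, a ligand that costimulates T cells (means 1.00 and 8.18 RPKM, 2.20 ± 0.07), and H2-DMa, which helps to load class II peptides (means 1.82 and 7.89 RPKM, 1.66 ± 0.09).

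Secreted inflammatory mediators were higher in shSMRT. Of 26 cytokine and chemokine ligands, 15 were tested and all 15 were higher (against 22.9% of all tested genes), with a median of 0.79. The other 11, among them Il6, Il1b, Il10 and Cxcl9, did not reach the filter. Beside Ccl2, Cxcl10, an interferon-induced chemokine for T cells, was at 0.838, 0.992 and 1.30 RPKM in shNCOR and at 7.67, 8.69 and 7.42 RPKM in shSMRT, with 4.52 to 5.98 RPKM in shGFP (2.13 ± 0.10, limma, adjusted p = 2.89e-08). Ccl3, a macrophage inflammatory protein, had means of 90.5 RPKM in shNCOR, 199 RPKM in shSMRT and 132 RPKM in shGFP (1.13 ± 0.06). The ligands with the smallest differences were Tgfb1, an anti-inflammatory cytokine (0.29 ± 0.03), and Osm (0.30 ± 0.10). For the 15 ligands the control mean was between the knockdowns in 7, above both in 4 and below both in 4.

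Of 26 receptors for such signals, 24 were tested, 16 were higher (66.7%) and 4 were lower (16.7%, below the 29.2% of all tested genes), with a median of 0.27. C3ar1, the receptor of complement C3a (0.97 ± 0.06), and Ccrl2, an atypical chemokine receptor (0.96 ± 0.12), had the largest differences. Cxcr4, the receptor of CXCL12, was at 12.1, 13.3 and 11.9 RPKM in shNCOR and at 8.00, 8.03 and 7.85 RPKM in shSMRT (-0.58 ± 0.07), and Tlr4, the receptor of lipopolysaccharide, had means of 16.9 and 12.5 RPKM (-0.41 ± 0.04). The shGFP means were 1.67 RPKM for Cxcr4 and 9.10 RPKM for Tlr4, below both knockdowns. Of 18 NF-kB subunits and feedback inhibitors 13 were higher (72.2%, against 22.9% of all tested genes) and none was lower. Tnip3 (1.23 ± 0.05) and Nfkbie (0.87 ± 0.05) had the largest differences. What these RNA differences mean for NF-kB signalling was not tested. Of 28 tested EGR, AP-1 and feedback phosphatase genes, which respond to growth factor signalling, 21 were higher (75.0%) and 1 was lower (3.57%). Their median was 0.41. Dusp6, a phosphatase that switches off ERK, had means of 3.53 and 10.4 RPKM (1.33 ± 0.06), Egr2 had means of 5.78 and 14.8 RPKM (1.22 ± 0.06), and Jun was the lower member (-0.16 ± 0.04).

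Macrophage genes were mostly higher in shSMRT. Of 20 tested surface and secreted macrophage markers 18 were higher (90.0%) and 1 was lower (5.00%), with a median of 0.34. Over all tested genes the shares were 22.9% and 29.2%. Csf1r, the receptor of CSF1, was at 314 to 326 RPKM in shNCOR and at 543 to 565 RPKM in shSMRT (0.78 ± 0.03), so that both receptor and ligand were higher. Aif1, a cytoskeletal protein of macrophages, had means of 0.891 and 4.85 RPKM (1.64 ± 0.11). The exception was Mpeg1, a pore-forming antibacterial protein, at 226, 237 and 231 RPKM in shNCOR, at 113, 115 and 117 RPKM in shSMRT and at 151 to 161 RPKM in shGFP (a fold of 0.498 of the shNCOR mean, limma, adjusted p = 9.45e-10). Of 14 tested lineage transcription factors 10 were higher (71.4%), including Cebpa (0.88 ± 0.04) and Irf8 (0.76 ± 0.05). Tfeb (-0.19 ± 0.04) and Bhlhe41 (-0.41 ± 0.05) were lower (14.3%).

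Of 14 tested Fc receptors, their signalling partners and complement genes, 10 were higher (71.4%) and 2 were lower (14.3%), with a median of 0.52. Pros1, protein S, was at 1.84, 1.64 and 1.94 RPKM in shNCOR and at 11.8, 12.0 and 11.1 RPKM in shSMRT (2.17 ± 0.06), while Gas6, the other ligand of the TAM receptors, was lower. The 2 ligands thus differed in opposite directions. Syk, a kinase downstream of Fc receptors, was the second lower member (-0.11 ± 0.04, adjusted p = 0.0256), and it missed the threshold after median-ratio scaling (limma, adjusted p = 0.0647) and without shNCOR library 1 or 2 or shSMRT library 1 or 2 (0.0639 to 0.0926). Of 17 tested integrins and adhesion molecules 11 were higher (64.7%) and 4 were lower (23.5%, below the 29.2% of all). Itgax, which encodes CD11c, had means of 5.71 RPKM in shNCOR, 22.7 RPKM in shSMRT and 1.33 RPKM in shGFP (1.82 ± 0.05). Itga6, an integrin that binds laminin, had means of 0.108 and 2.45 RPKM (1.64 ± 0.08), and Itga4 had means of 165 and 110 RPKM (-0.58 ± 0.06). Of 11 tested matrix proteins, proteases and inhibitors 9 were higher (81.8%, against 22.9% of all tested genes) and none was lower. Their median was 0.59.

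RAW264.7 cells can become osteoclasts, which fuse and resorb bone. Of 18 tested genes of osteoclast differentiation, fusion and resorption, 12 were higher (66.7%, against 22.9% of all tested genes) and 4 were lower (22.2%, below the 29.2% of all), with a median of 0.64. Ctsk, the collagen-degrading cathepsin, was at 1.93, 1.22 and 1.66 RPKM in shNCOR and at 9.30, 9.19 and 8.27 RPKM in shSMRT (1.94 ± 0.11), and Mmp12, macrophage elastase, had means of 2.52 and 10.2 RPKM (1.67 ± 0.07). The shGFP means were 0.903 RPKM for Ctsk and 0.0453 RPKM for Mmp12, below both knockdowns. Car2 and Gpnmb, a membrane glycoprotein (means 518 and 367 RPKM, -0.50 ± 0.02), were the lowest members. Of 6 tested genes of the IL-4 response 3 were higher (50.0%), including Il4ra (0.65 ± 0.09) and Tgm2 (0.53 ± 0.07). The other 3 were lower (50.0%), including Cd300ld (-0.73 ± 0.05) and Clec10a (-0.63 ± 0.11). Il4ra passed the filter only through shSMRT. With no filter on low values 7 genes of this list were higher and 3 lower, and its median was 0.01 instead of 0.20. In that setting 2922 of all 15768 genes were higher and 2998 were lower. Among 26 tested lysosomal hydrolases 10 were higher (38.5%), led by Ctsc (1.07 ± 0.03), and 7 were lower (26.9%, near the 29.2% of all tested genes), led by Naglu (-0.56 ± 0.04). Among 21 lysosomal membrane proteins and proton pump subunits 8 were higher (38.1%), led by Atp6v0a1 (means 13.3 and 31.7 RPKM), and 4 were lower (19.0%), led by Lamp1 (-0.64 ± 0.02). With quantile normalization the higher counts were 15 and 13.

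Nuclear receptor targets are classical sites of corepressor action. Of 18 retinoid receptor and target genes 9 were tested, 5 were lower (55.6%, against 29.2% of all tested genes) and 2 were higher (22.2%, against 22.9%), with a median of -0.18. Beside Rarb, Rxra, the shared partner of these receptors, had means of 1.69 RPKM in shNCOR, 1.000 RPKM in shSMRT and 3.43 RPKM in shGFP (-0.42 ± 0.08). Dhrs9, a retinol dehydrogenase (0.85 ± 0.06), and Rarg (0.39 ± 0.07) were the higher members. The Rarb promoter is known to carry a retinoic acid response element, and its window (chr14:16575427-16575726, minus strand, mm10) is shown because its RNA and its open chromatin both differed. Capitals mark a direct repeat of the GNTCA letters with any 6 bases between them. This is the search form of the direct repeat spaced by 5 that retinoic acid receptors read, whose half-sites begin before the GNTCA letters. These letters were added to the search after this window had been seen, and were in 0.643% of all promoters, in 2.21% of genes higher by at least 1 and in 1 of 19 genes lower by at least 1.

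Rarb: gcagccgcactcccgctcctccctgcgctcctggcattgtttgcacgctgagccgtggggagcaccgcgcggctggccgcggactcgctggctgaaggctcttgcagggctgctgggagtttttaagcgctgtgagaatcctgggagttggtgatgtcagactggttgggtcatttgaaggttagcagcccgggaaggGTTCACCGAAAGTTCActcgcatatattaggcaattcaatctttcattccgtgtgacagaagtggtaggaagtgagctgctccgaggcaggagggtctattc

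Of 19 tested LXR receptors and sterol efflux targets, 7 were higher (36.8%) and 9 were lower (47.4%), with a median of -0.11. Over all tested genes the shares were 22.9% and 29.2%. Phlda3 (1.81 ± 0.07) and Arl4c (1.15 ± 0.10) were at the upper end, and Plin2 and Scd1 at the lower end. Of 19 tested PPAR receptors and lipid uptake targets 5 were higher (26.3%) and 13 were lower (68.4%), with a median of -0.23. Pparg itself, the receptor that drives lipid uptake, had means of 0.527 RPKM in shNCOR, 2.08 RPKM in shSMRT and 1.22 RPKM in shGFP (1.02 ± 0.10). Cd36, the scavenger receptor for oxidized lipid, was at 94.9 to 101 RPKM in shNCOR, at 171 to 175 RPKM in shSMRT and at 44.5 to 49.4 RPKM in shGFP (0.82 ± 0.04). Plin2 was at 109 to 119 RPKM in shNCOR, at 49.9 to 52.4 RPKM in shSMRT and at 44.1 to 46.5 RPKM in shGFP, so that a receptor for lipid uptake and a coat protein of stored lipid differed in opposite directions.

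Of 25 tested cholesterol synthesis and uptake genes 18 were lower (72.0%, against 29.2% of all tested genes) and none was higher, with a median of -0.23. Dhcr7, the last enzyme of the pathway, had means of 29.9 RPKM in shNCOR, 17.3 RPKM in shSMRT and 34.8 RPKM in shGFP (-0.75 ± 0.03), and Fdps had means of 312, 217 and 380 RPKM (-0.52 ± 0.04). With the test for a difference beyond 1.2 fold, 3 of the 25 were lower, against 353 of all 10694 tested genes. Of 20 tested fatty acid synthesis genes 11 were lower (55.0%), including Scd1 and Scd2 (-0.65 ± 0.03), and 3 were higher, including Elovl5 (0.48 ± 0.03) and Acsl4 (0.40 ± 0.04). Among 13 tested prostaglandin and leukotriene enzymes Hpgd stood far above the rest. In all, 3 members were higher (23.1%, near the 22.9% of all tested genes), Tbxas1, thromboxane synthase (0.75 ± 0.11), among them. The 6 lower members (46.2%) were led by Alox5, the enzyme that begins leukotriene synthesis (means 15.2 and 10.4 RPKM, -0.51 ± 0.04).

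Of 25 nuclear-encoded respiratory chain genes 24 were lower (96.0%, against 29.2% of all tested genes) and none was higher, with a median of -0.28. Atp5a1, a subunit of ATP synthase, was at 543 to 569 RPKM in shNCOR, at 422 to 425 RPKM in shSMRT and at 529 to 542 RPKM in shGFP (-0.39 ± 0.03). When the test asked for a difference beyond 1.2 fold, 2 of the 25 were lower. In that test 353 of all 10694 tested genes were lower and 762 were higher. Of 18 endoplasmic reticulum chaperones 16 were lower (88.9%, against 29.2% of all), with a median of -0.29, and 8 were lower beyond 1.2 fold. Sdf2l1 (-0.60 ± 0.04) and the stress transcription factor Xbp1 (-0.57 ± 0.03) led the lower members. Of 22 tested genes of the integrated stress response, the programme of amino acid shortage, 15 were lower (68.2%) and 2 were higher (9.09%). The amino acid transporter Slc7a5 led the lower members (means 55.1 and 28.9 RPKM, -0.91 ± 0.03). The higher members were Sesn2 (0.70 ± 0.07) and Cebpg (0.16 ± 0.06). Beyond 1.2 fold, 6 of the 22 were lower and 1 was higher. Cebpg missed the threshold when the 6 knockdown libraries were fitted alone (limma, adjusted p = 0.0535) and without shNCOR library 2 or 3 or any 1 shSMRT library (0.0559 to 0.133).

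Of 25 mitosis genes 19 were lower (76.0%) and none was higher, with a median of -0.16, led by Birc5, the survivin gene (means 125 and 80.5 RPKM, -0.63 ± 0.04). With the test for a difference beyond 1.2 fold, 1 of the 25 was lower, against 353 of all 10694 tested genes. Of 26 replication genes 11 were lower (42.3%), 14 did not pass and 1 was higher, Ccne1, which encodes cyclin E (0.61 ± 0.04). None of the 26 was lower beyond 1.2 fold. Of 21 tested glycolysis and hypoxia genes 12 were lower (57.1%) and 4 were higher (19.0%, near the 22.9% of all tested genes). Vegfa, the vascular growth factor, led the lower members (means 3.39 and 1.15 RPKM, -1.03 ± 0.12). The higher members included the glucose transporter Slc2a1 (0.48 ± 0.04). Beyond 1.2 fold, 1 of the 21 was lower and 1 was higher, against 353 lower and 762 higher of all 10694 tested genes. Among 22 tested antioxidant and metal response genes 8 were higher (36.4%) and 6 were lower (27.3%, near the 29.2% of all). Of 20 ribosomal protein genes 3 were higher (15.0%) and 4 were lower (20.0%), both below the shares of all tested genes. Their median was -0.01. After removal of the trend with exon length those counts were 11 and 1, so their direction depends on the scaling. Of 8 tested replication-dependent histone genes, whose messages normally carry no poly(A) tail, 7 were higher (87.5%, against 22.9% of all tested genes). Hist2h2aa1 (1.71 ± 0.14), which has an identical copy, had the largest difference. These libraries were made from polyadenylated RNA, and the part of that selection in the histone values was not tested.

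**Figure D4:**
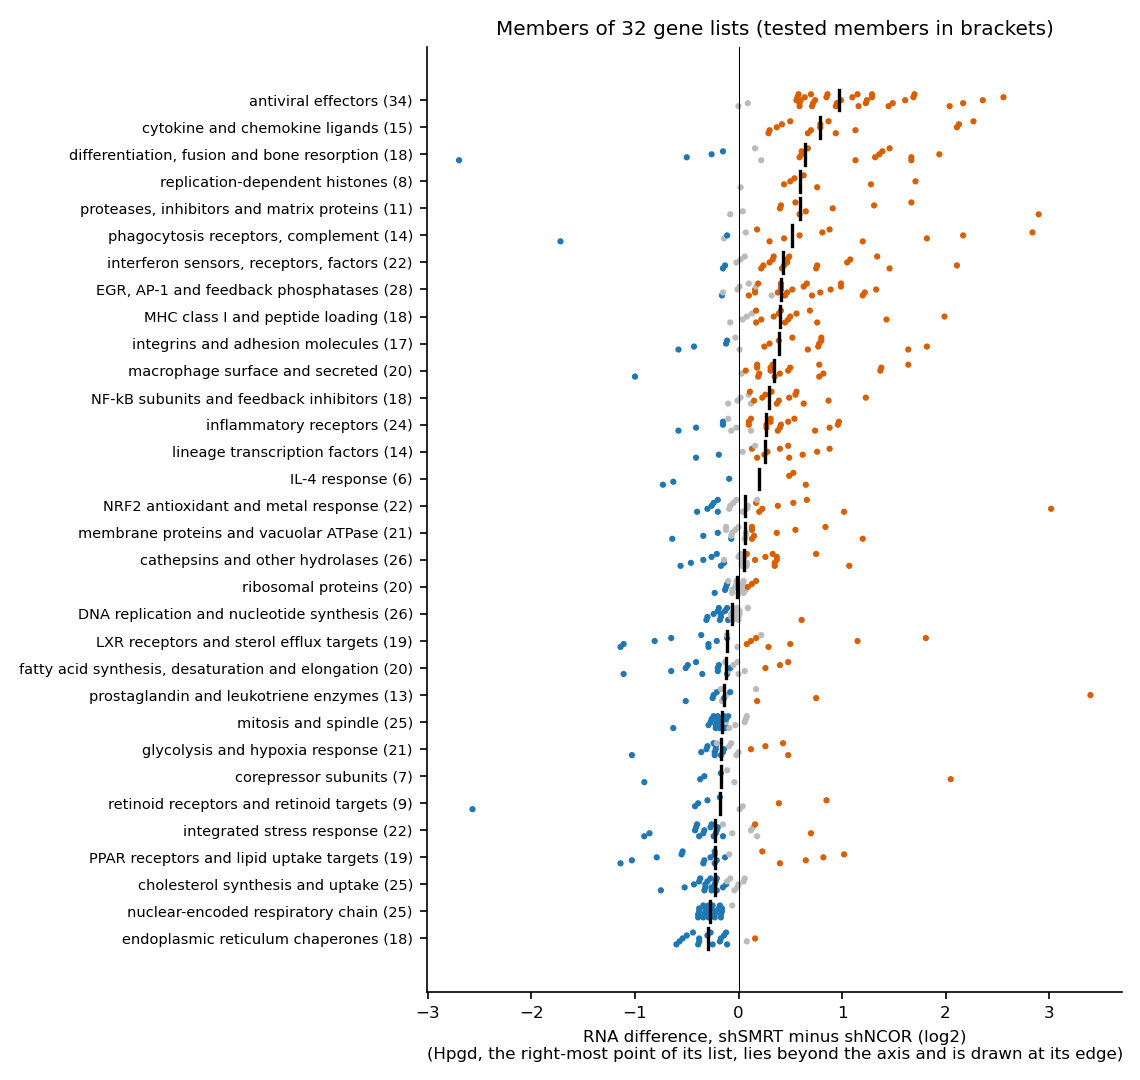
RNA difference between the knockdowns (shSMRT minus shNCOR, log2) for each tested member of the 32 gene lists with at least 5 tested members, ordered by median (black bars). Points are orange for genes called higher, blue for genes called lower and grey for the rest. The antiviral effectors have the highest median (0.97) and the endoplasmic reticulum chaperones the lowest (-0.29).

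Open chromatin at promoters was compared in the ATAC libraries, which held 6.06 to 10.8 M reads. The listed peaks took 54.7% to 55.7% of the reads in shNCOR and 47.6% to 49.9% in shSMRT. Values were deposited per 10 M reads in the library, and on that scale 3550 of 51200 tested peaks (6.93%) were higher in shSMRT and 9003 (17.6%) were lower. Of 8797 promoter peaks (the nearest peak within 1000 bases of the start of a tested gene) 52 were higher (0.591%) and 4313 were lower (49.0%), with a median of -0.30. The smaller share of reads in peaks stands beside that shift and its part in it was not tested, so each promoter is read against -0.30. With equal totals over the listed peaks the median was -0.13, with 98 higher (1.11%) and 1104 lower (12.5%). With quantile normalization it was -0.08, with 125 higher and 509 lower. Higher calls were 1.19% of the promoter calls on the deposited scale, 8.15% with equal totals and 19.7% with quantile normalization.

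Among called promoter peaks of the genes with the largest RNA differences, accessibility mostly differed in the direction of RNA. Of the 187 genes higher by at least 1 in RNA, 133 had a promoter peak, of which 31 were higher and 9 lower, with a median of 0.16. The rest of the 133, which were most of them, had no call. Of all promoter peaks, 0.591% were higher and 49.0% were lower. With equal totals, 42 of the 133 were higher and 3 lower, against 1.11% and 12.5% of all promoter peaks. Of the 27 genes lower by at least 1, 20 had a promoter peak, of which 19 were lower and none higher, with a median of -0.67. Lower calls were common on the deposited scale (49.0% of all promoter peaks), so the 19 are read against that share. With equal totals, 12 of the 20 were lower, against 12.5% of all promoter peaks. Genes without an RNA call had a median of -0.30. Angptl2 had promoter values of 54.1, 46.2 and 43.1 in shNCOR and 171, 158 and 157 in shSMRT (1.66 ± 0.14, limma, adjusted p = 4.27e-13), with a mean of 182 in shGFP. The naming rule chose Angptl2, Acy1, Rarb and Opcml, genes whose promoter peak and RNA differed in the same direction. The Rarb window is printed above and those of Angptl2 and Acy1 held none of the 5 motifs. The Opcml window in the RefSeq table lies at another start than its peak and the counted transcript, so it is not read here. The Angptl2 window (chr2:33215711-33216010, plus strand, GRCm38.p6, from RefSeq) overlaps its peak and is shown in lower case throughout, since no motif was found.

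Angptl2: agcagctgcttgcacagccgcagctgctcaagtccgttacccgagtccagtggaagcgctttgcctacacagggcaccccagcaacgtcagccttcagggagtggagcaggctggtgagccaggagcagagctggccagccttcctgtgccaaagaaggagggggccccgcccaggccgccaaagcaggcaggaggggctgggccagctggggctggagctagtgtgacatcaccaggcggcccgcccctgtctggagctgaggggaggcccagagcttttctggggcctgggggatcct

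At its promoter, Acy1 had mean ATAC values of 61.1 in shNCOR and 214 in shSMRT (1.74 ± 0.13). Rarb had promoter values of 183, 124 and 169 in shNCOR and 47.9, 29.5 and 29.7 in shSMRT (-2.02 ± 0.22, adjusted p = 1.06e-09), and the peak overlapped the window printed above. Htr1b had means of 184 and 53.9 (-1.69 ± 0.14). Not every large RNA difference had a promoter call in its direction. Rtp4 (0.27 ± 0.19) did not pass, a test made against 0, though it lay above the median of all promoter peaks (-0.30). Ccl3 was lower at its promoter (-0.38 ± 0.08), near the overall shift, and Hpgd had no tested promoter peak.

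Peaks within 50 kb of a gene were also counted, a window chosen after values were seen. Around the 15 genes highest in RNA, 30 of 58 peaks were higher and none was lower. Around the 15 lowest, 44 of 67 were lower and none was higher. Over all tested genes 3.26% of such peaks were higher and 24.3% were lower. For Hpgd 2 of 3 such peaks were higher, for Tnc 4 of 5 and for Pdcd1 4 of 5, and for Rarb 8 of 9 were lower.

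**Figure D5:**
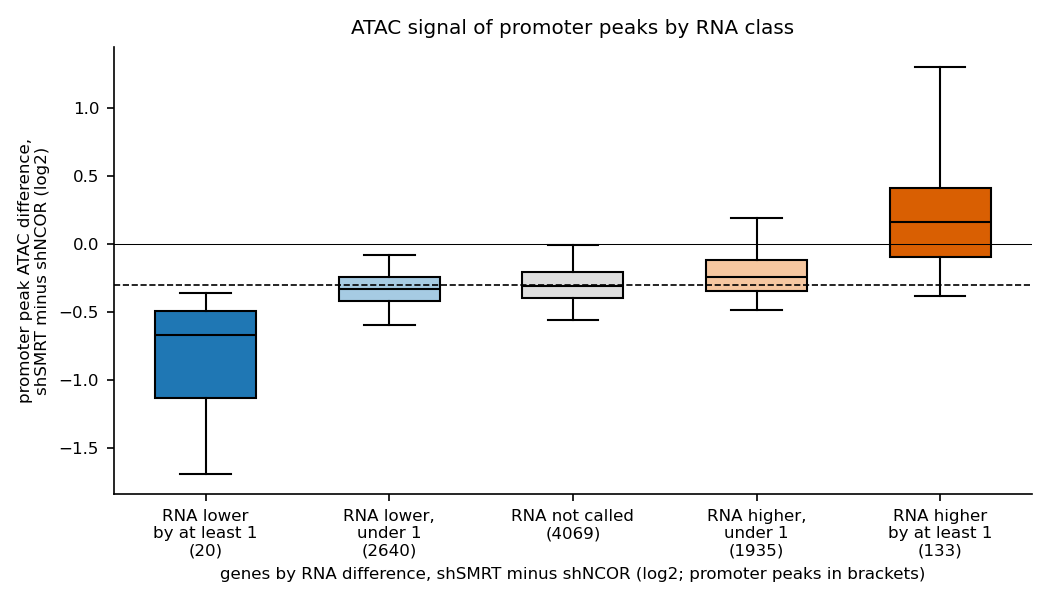
ATAC difference of promoter peaks (shSMRT minus shNCOR, log2 of the deposited value plus 5) in genes grouped by their RNA call and difference. Boxes show the quartiles and the median, whiskers the central 90% of genes, and the dashed line the median of all promoter peaks (-0.30). The genes higher by at least 1 in RNA have a median of 0.16, and those lower by at least 1 a median of -0.67.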

How the data were processed

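RNA values were RPKM deposited by the authors. Exon reads of mm10 genes were summed over both strands and 1 transcript kept per gene by HOMER, per the file headers. ATAC values were signal in a merged peak list, scaled by the authors to 10 M reads, per the file headers (HOMER). Other tools in the submitters' processing notes, without version or role, are MACS2, DESeq2, HISAT2 and Bowtie2.

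RPKM were whole multiples of 1 read (100% of low values within 0.1 read), so reads could be recovered for limma voom, an alternative. RNA was tested with limma-trend (limma 3.58.1 under R 4.3.3) on log2(RPKM + 1), fitted to all 9 libraries so that the groups share 1 estimate of spread, with the contrast shSMRT minus shNCOR and Benjamini-Hochberg adjustment over 10694 genes. Fold changes are on that scale and understate low genes. ATAC used log2(value + 5) for peaks at 10 or more in at least 3 knockdown libraries. 1 peak with an unreadable value was dropped. The script was tested on simulated data.

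Named genes were the target of the NCOR hairpin, 15 called genes from each end of the ranked differences (non-overlapping groups, predicted and unnamed genes left out), the 5 most abundant past 1 in each direction, and up to 2 called members at each end of each list. A few other listed genes were named after their values were seen. Members and lists were chosen with earlier results of these data known. 1 of 757 listed symbols is not in the table. The other 54 of 72 samples of the series were not used. Some genes are not reported here. In each group n is 3.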

Additional observations from a re-analysis of the deposited data

How the results depend on the processing

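In 21 alternative settings, none of the 128 named genes changed direction, and 57 of 2670 values lost their call, 24 genes among them. No called gene was called in the opposite direction. The test beyond 1.2 fold left 762 genes higher and 353 lower. The genes higher and lower by at least 1 numbered 302 and 45 with a pseudocount of 0.1, 323 and 50 with limma voom on recovered reads and 123 and 17 with a filter of 5 RPKM, which tests fewer genes. Removal of the trend with exon length, chosen after seeing the data, gave 2799 higher and 2729 lower.

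With 1 library left out in turn, genes higher ranged from 2185 to 2443 and lower from 2763 to 3138. Those past 1 ranged from 184 to 189 and from 23 to 31. Peaks higher ranged from 2511 to 3645 and lower from 6413 to 8722. Promoter peaks in the direction of RNA ranged from 21 to 31 among genes higher by at least 1 and from 16 to 19 among genes lower by at least 1. Lower ATAC peaks numbered 2410 with quantile normalization and 2581 with equal totals over the listed peaks. With equal totals 12 promoter peaks were lower among genes lower by at least 1 in RNA. The cause was not tested.

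Same-numbered shSMRT and shNCOR libraries deviated together with correlations of 0.03, 0.03 and -0.06, so the numbers do not pair the libraries. With the replicate block, 2510 genes were higher and 3222 lower. Replicates differed by more than sampling noise (chi-square per gene 3.58 to 9.95). Depth limits genes under 1 RPKM, and with 3 libraries a group the spread of single genes rests on the pooled trend.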

Other observations

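Genes ranked just after the 15 highest and the 15 lowest, chosen here after their values were seen, fell in several roles. Lmo2, a transcriptional adaptor of blood progenitors, was at 13.6, 13.6 and 14.6 RPKM in shNCOR and at 59.3, 59.6 and 59.4 RPKM in shSMRT (2.02 ± 0.04, limma, adjusted p = 2.12e-11). Cd276, a surface protein of the B7 family, had means of 9.81 and 43.4 RPKM (2.04 ± 0.05). Ctse, an aspartic protease, had means of 0.797 and 7.61 RPKM (2.26 ± 0.06), and Col18a1, a basement membrane collagen, had means of 0.469 and 4.71 RPKM (1.96 ± 0.09). The groups did not overlap for any of these 4 genes, which were picked for large differences. The same held for 59.1% of all tested genes.

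On the lower side, Nceh1, a cholesterol ester hydrolase, was at 34.1 to 35.6 RPKM in shNCOR and at 17.1 to 17.2 RPKM in shSMRT (-0.99 ± 0.03). St6galnac6, a sialyltransferase, had means of 27.8 and 12.6 RPKM (-1.08 ± 0.04), and Ndrg4 had means of 64.1 and 32.7 RPKM (-0.95 ± 0.04). Over all tested genes the difference had a Spearman correlation of 0.15 with exon length and of -0.23 with level. These are descriptions across genes, which are not independent replicates.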
